A study of Mus musculus with 4 samples.

Results

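To follow how the transcriptome of GC-1 cells moved between 24 h and 36 h after transfection, the libraries of both time points were compared within the MYC plasmid and within the MYC-TET1 plasmid. FPKM gives the fragments of a gene per kilobase of transcript, scaled to the mapped fragments of the library. Genes were compared if any of the 4 libraries had an FPKM of 1 or more, which held for 12254 of the 55385 genes in the deposited table. A change with time was called when both 36 h libraries were at least 2-fold above, or at least 2-fold below, both 24 h libraries, on FPKM with 0.1 added, which understates the change of genes of low FPKM. By this rule 90 genes changed, of which 32 were higher and 58 were lower at 36 h, or 0.261% and 0.473% of the genes compared.

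GC-1 is an established mouse cell line of type B spermatogonial origin that was immortalised with the SV40 large T antigen. The control cells received the MYC plasmid and the TET1 overexpression group received the MYC-TET1 plasmid, by lipofection in both cases, and the medium of all cells was replaced between transfection and harvest. Each of the 4 conditions, a plasmid at a time, was sequenced as 1 library, and neither untransfected cells nor an earlier time were sequenced. The labels name no batch, so time and library preparation cannot be told apart, and no p-value exists within a plasmid. A test across the time points treats the libraries of both plasmids as the repeats of a time, and nothing in the labels says that they came from separate cultures. In bulk RNA, a smaller share of responding cells and less RNA per cell also cannot be told apart. All pairs of values are given in the order MYC, then MYC-TET1, and a pair at 24 h comes before the pair at 36 h.

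The counts summed to between 60611877 and 72547105 per library. Tet1 (ENSMUSG00000047146), the gene carried by the plasmid, checked the labels, with an FPKM of 0.0525 and 40.2 at 24 h and of 0.0562 and 19.6 at 36 h. Tet1 was therefore high in the MYC-TET1 libraries alone, and its ratio of 36 h to 24 h there was -1.03 on the log2 scale. Markers of the labelled cell type were mostly low. Of 16 spermatogonial markers 5 were compared, and Zbtb16, Nanos2 and Sall4 were listed at 0 in all libraries. None of the markers of differentiating germ cells or Leydig cells reached an FPKM of 1. Of 10 Sertoli cell markers 5 were compared, and Clu was the most abundant at 75.9 and 99.9 at 24 h and 110 and 135 at 36 h. Of 10 peritubular or fibroblast markers 6 were compared, led by Col1a1 at 209 and 229 and then 218 and 219. Of 8 macrophage markers 3 were compared. Cd68 was lower in both 36 h libraries, at 16.7 and 15.2 and then 11.8 and 13.2, and Cd14 was higher, at 19.6 and 17.6 and then 21.5 and 19.96, while Adgre1 was listed at 0 throughout and Csf1r and Ptprc stayed under 0.1. None of these marker lists had a compared member with both 36 h libraries at least 1.5-fold above or below both 24 h libraries. A change with a single plasmid does not meet this. Wt1, a Sertoli marker, went from 14.0 and 13.2 to 25.6 and 13.4, so only its MYC ratio passed 1.5-fold.

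Most of what follows concerns genes of the interferon response. Cells that sense foreign DNA or RNA, including DNA brought in by transfection, can secrete type I interferon, which binds the IFNAR receptor and acts through a complex of transcription factors. This complex binds a short DNA element, the interferon stimulated response element, before the start of many antiviral genes. Such genes encode sensors of nucleic acid, proteins that block viral RNA or protein synthesis, GTPases that attack intracellular pathogens, and the machinery that presents peptides on class I molecules.

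The time changes were compared between the plasmids. In MYC, 292 genes (2.38%) were at least 2-fold higher and 326 (2.66%) at least 2-fold lower at 36 h. In MYC-TET1, 240 genes (1.96%) were higher and 268 (2.19%) were lower. Of these, 44 genes were higher and 79 were lower in both plasmids, whereas 42 were higher with MYC and lower with MYC-TET1 and 36 were the reverse. The median log2 ratio over all compared genes was 0.02 in both plasmids. FPKM is scaled within each library, so a change in total RNA per cell cannot be seen in it. Across the 12254 genes the ratios of both plasmids had a Pearson correlation of 0.129, which rose to 0.226 in the 7152 genes with a mean FPKM of at least 5. These correlations are across genes of the same libraries and are given as a description.

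**Figure D1:**
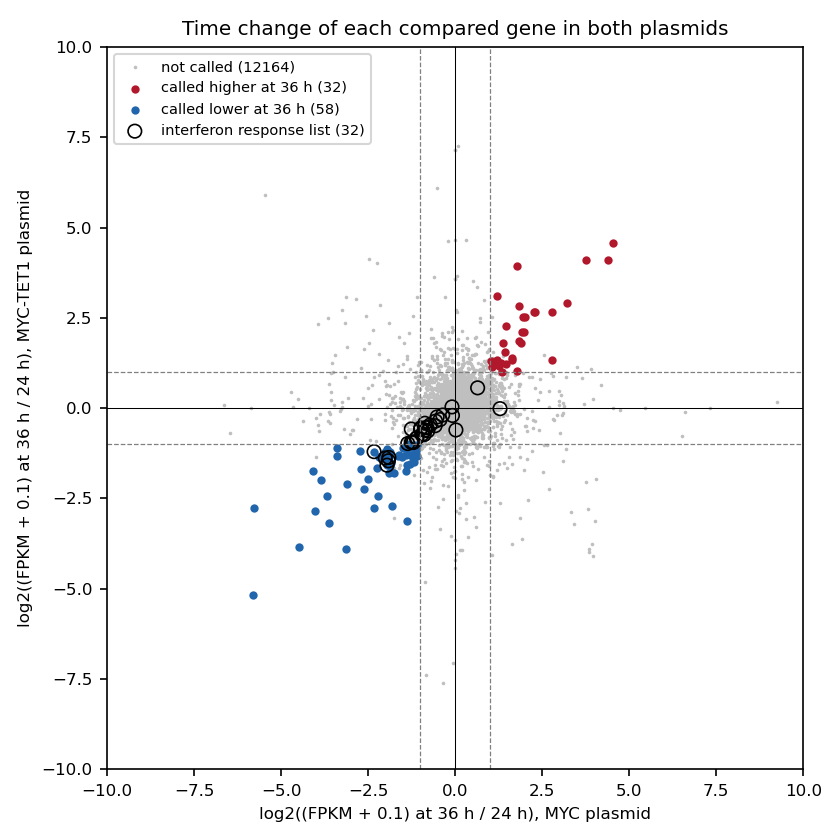
Each point is 1 of 12254 compared genes. The x axis is the log2 ratio of 36 h to 24 h with the MYC plasmid and the y axis the same ratio with MYC-TET1, both on FPKM with 0.1 added. Called genes are red (32 higher) or blue (58 lower), circles mark the 32 members of the interferon response list, and dashed lines mark 2-fold. Most circles lie below 0 on both axes, near the diagonal.

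By edgeR's quasi-likelihood test with plasmid and time as terms, which leaves 1 residual degree of freedom, 0 genes passed an adjusted p of 0.05 in either direction. The smallest adjusted p was 0.0592. With an unadjusted p under 0.05 were 776 higher genes (6.33% of those compared) and 925 lower genes (7.55%). Without the plasmid term, edgeR called 28 genes higher (0.228%) and 60 lower (0.49%), of which 15 and 18 also met the fold rule. DESeq2 with the same terms called 149 higher and 279 lower. The number of calls thus differed widely between tests on 4 libraries, and the calls below are those of the fold rule unless another test is named.

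Of the 35 protein-coding genes that fell, 10 (28.6%) carried at least 1 of 5 immune annotations of gene ontology (immune response, innate immune response, inflammatory response, defense response to virus, and cellular response to interferon-beta), against 3.92% of the 10316 compared protein-coding genes. Of the 19 protein-coding genes that rose, 0 carried any of these 5, although other immune terms held Gapdh (antimicrobial humoral response), Socs6 (immunological synapse) and Hp (response to bacterium). With the rule set at 1.5-fold the shares were 42 of 122 lower genes (34.4%) and 0 of 57 higher genes. Counts of genes past 1.5-fold use that rule on all 4 libraries throughout. Single terms were read against the 0.33% of 10290 annotated compared genes that fell and the 0.185% that rose. For cellular response to interferon-beta, 6 of 39 compared genes fell (15.4%), namely Gm5431, Ifi205, Ifit3, Igtp, Iigp1 and Tgtp2, and 28 of 39 were lower in both 36 h libraries than in both 24 h libraries, whatever the size, against 20.8% of all compared genes. For defense response the count was 6 of 37, for response to virus 4 of 63, and for response to bacterium 5 of 83, where Hp rose. These terms and phagocytic vesicle membrane (2 of 35) were taken because their shares of lower genes were high. They were among the first 5 of 1325 terms ranked by that share. Among genes that rose, the 5 terms of gene ontology with the largest share, counting terms with at least 20 compared genes, held 1 each. In KEGG, 2 of 32 genes of the proteasome (Psmb9 and Psmb10) and 2 of 34 genes of antigen processing and presentation (Tap1 and Tapbp) fell, against 0.305% of 3935 annotated compared genes. Both terms were likewise taken for having the highest shares of lower genes, among 238 terms. In both 36 h libraries, 16 of the 32 proteasome genes were higher and 9 lower, and 8 of the 34 antigen presentation genes were higher and 17 lower, against 27.9% higher and 20.8% lower of all compared genes. The median log2 ratios of these terms were 0.05 and -0.12.

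A list of 32 interferon response genes was compared in full. Of these, 5 fell (Ifit2, Ifit3, Mx1, Psmb9 and Tap1) and 0 rose. With the threshold at 1.5-fold, 16 were lower and 0 higher, against 1.44% and 0.881% of all compared genes. Both 36 h libraries were below both 24 h libraries in 28 of the 32, while this held for 20.8% of all compared genes. The median log2 ratio of the list was -0.88 with MYC and -0.60 with MYC-TET1. By edgeR with the plasmid term, 28 members were lower with an unadjusted p under 0.05, against 7.55% of all compared genes, and none passed after adjustment over all genes.

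The promoters of the lower genes were read for the interferon stimulated response element (GAAA, any 2 bases, GAAA), on both strands in the 250 bases before each start. RefSeq gave 31 windows for 28 of the 35 lower protein-coding genes, and 10 windows (32.3%) held the letters, in Gbp2b, Ifi205, Ifit1bl1, Ifit3, Ifit3b, Igtp, Phf11a, Phf11b and Tgtp2. All 32851 windows held them in 2.98%, those of compared genes in 2.73%, and the 13 windows of the higher protein-coding genes in 0. This element was 1 of 11 motifs searched. The AP-1 site (TGANTCA), for instance, lay in 16.1% of the windows of the lower genes, 6.75% of all windows and 4.56% of those of compared genes. The C/EBP-ATF response element (TGATGNAAT) lay in 2 windows of the lower genes (6.45%), against 0.816% of all windows and 0.372% of those of compared genes. A match is a run of letters and not a shown binding site. The windows are printed for the 4 genes among the 12 largest falls that hold the interferon stimulated response element, to show where its letters lie. Tap1 is printed as a strongly lower gene whose window holds none. Capitals mark the element, on either strand, and each window is 250 bases long and read 5′ to 3′ on the strand of the gene in GRCm38.p6, from chr19:34583279-34583528 (plus) for Ifit3, chr19:34607707-34607956 (plus) for Ifit3b, chr19:34601969-34602218 (minus) for Ifit1bl1, chr14:59341331-59341580 (minus) for Phf11b and chr17:34187306-34187555 (plus) for Tap1.
Ifit3: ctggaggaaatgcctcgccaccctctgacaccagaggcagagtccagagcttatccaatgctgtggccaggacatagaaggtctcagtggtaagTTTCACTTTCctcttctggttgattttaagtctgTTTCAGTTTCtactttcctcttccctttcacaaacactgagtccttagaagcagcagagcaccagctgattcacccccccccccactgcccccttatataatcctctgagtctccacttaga
Ifit3b: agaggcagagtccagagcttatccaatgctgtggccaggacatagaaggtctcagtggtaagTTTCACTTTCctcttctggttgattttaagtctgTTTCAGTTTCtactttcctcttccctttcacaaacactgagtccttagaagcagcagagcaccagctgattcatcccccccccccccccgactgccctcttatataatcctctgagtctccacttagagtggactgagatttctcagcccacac
Ifit1bl1: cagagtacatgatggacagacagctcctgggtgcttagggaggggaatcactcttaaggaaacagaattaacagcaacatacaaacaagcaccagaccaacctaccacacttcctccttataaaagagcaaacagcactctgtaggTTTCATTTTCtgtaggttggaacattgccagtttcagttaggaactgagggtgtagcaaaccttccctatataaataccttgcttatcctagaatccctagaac
Phf11b: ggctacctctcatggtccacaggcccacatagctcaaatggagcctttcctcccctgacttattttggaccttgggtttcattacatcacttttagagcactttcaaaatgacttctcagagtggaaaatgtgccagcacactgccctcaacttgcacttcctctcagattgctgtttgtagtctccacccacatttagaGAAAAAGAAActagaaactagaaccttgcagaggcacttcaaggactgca
Tap1: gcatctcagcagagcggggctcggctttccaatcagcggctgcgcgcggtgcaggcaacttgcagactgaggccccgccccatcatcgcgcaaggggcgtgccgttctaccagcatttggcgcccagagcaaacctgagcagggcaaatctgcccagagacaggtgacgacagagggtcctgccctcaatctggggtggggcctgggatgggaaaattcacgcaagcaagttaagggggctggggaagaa
In Ifit3 the element occurred at 156 and 122 bases before the start and in Ifit3b at 188 and 154 bases, and the windows of this gene pair shared a stretch of 169 bases letter for letter.

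The IFIT proteins bind viral RNA and block its translation. Ifit3 had an FPKM of 413 and 407 at 24 h and of 102 and 156 at 36 h, so both 24 h libraries were close to each other and far above both 36 h libraries. The fall was 4.03-fold with MYC and 2.61-fold with MYC-TET1 (edgeR adjusted p = 0.0916 with and 0.0786 without the plasmid term). Ifit3b, its neighbour on chromosome 19, went from 202 and 191 to 47.9 and 72.7. The transcripts of Ifit3 and Ifit3b are near-identical, and reads can be counted for either gene. With both summed the log2 ratio was -2.04 and -1.39. Ifit2 had 77.8 and 69.6 at 24 h and 20.7 and 26.9 at 36 h, which was 3.75-fold and 2.58-fold lower (adjusted p = 0.0832 with and 0.0478 without the plasmid term by edgeR). Ifit1bl1 went from 10.3 and 9.16 to 1.48 and 2.77, the widest ratio among the family. Ifit1 stayed short of the rule, with 278 and 254 at 24 h and 140 and 173 at 36 h, a 1.98-fold and 1.47-fold lower level.

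Class I molecules present peptides that the immunoproteasome cuts and that the TAP transporter moves into the endoplasmic reticulum. Tap1, a subunit of that transporter, had an FPKM of 23.2 and 26.6 at 24 h and of 6.07 and 9.58 at 36 h, a fall of 3.78-fold and 2.75-fold. Psmb10, a catalytic subunit of the immunoproteasome on chromosome 8, went from 103 and 107 to 33.7 and 43.8. Psmb9, another such subunit that starts beside Tap1 on the opposite strand of chromosome 17, went from 3.07 and 2.86 to 0.530 and 1.18. Tapbp, which loads class I molecules, had 171 and 176 at 24 h and 71.3 and 82.5 at 36 h, or 2.40-fold and 2.13-fold lower. Cd274, a ligand that restrains T cells, went from 7.02 and 7.06 to 3.02 and 3.42.

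A set of 18 genes, of class I presentation with Cd274 added, was picked after these values were seen. The 17 compared were all lower in both 36 h libraries, and 5 of them, Cd274 included, fell by the rule. All compared genes gave 20.8% and 0.473%. The size differed within the set. B2m, the invariant chain of class I molecules, was 1709 and 1749 at 24 h and 1617 and 1517 at 36 h, less than 1.2-fold apart. The 3 constitutive proteasome subunits that Psmb8, Psmb9 and Psmb10 replace, Psmb5, Psmb6 and Psmb7, were each higher in both 36 h libraries, with mean log2 ratios of 0.05 to 0.10. Psmb6, for example, was 151 and 156 at 24 h and 164 and 164 at 36 h.

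Mx1, an antiviral GTPase of chromosome 16, had an FPKM of 15.9 and 15.9 at 24 h and of 4.01 and 5.23 at 36 h, log2 ratios of -1.96 and -1.58. By edgeR its adjusted p was 0.0694 with the plasmid term and 0.0418 without. Iigp1, an immunity-related GTPase, went from 7.41 and 6.90 to 1.74 and 2.88. Igtp of the same family had 188 and 184 at 24 h and 72.2 and 91.2 at 36 h, and Tgtp2 had 42.8 and 39.4 and then 15.1 and 18.3. Gbp2b, a guanylate-binding protein, was just inside the rule with 113 and 107 at 24 h and 43.3 and 53.02 at 36 h, a smallest ratio of 2.01-fold. Tgtp1 was just outside it, with 70.7 and 65.5 and then 26.2 and 32.7. Among 17 interferon inducible GTPases, a set picked after these values were seen, 5 fell by the rule, 13 were at least 1.5-fold lower and 15 were lower in both 36 h libraries, where all compared genes gave 0.473%, 1.44% and 20.8%. The 2 that overlapped were Ifi47 and Gbp6. Several of these genes have close relatives, as Tgtp1 and Tgtp2 are, and how reads were split between such relatives was not tested.

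**Figure D2:**
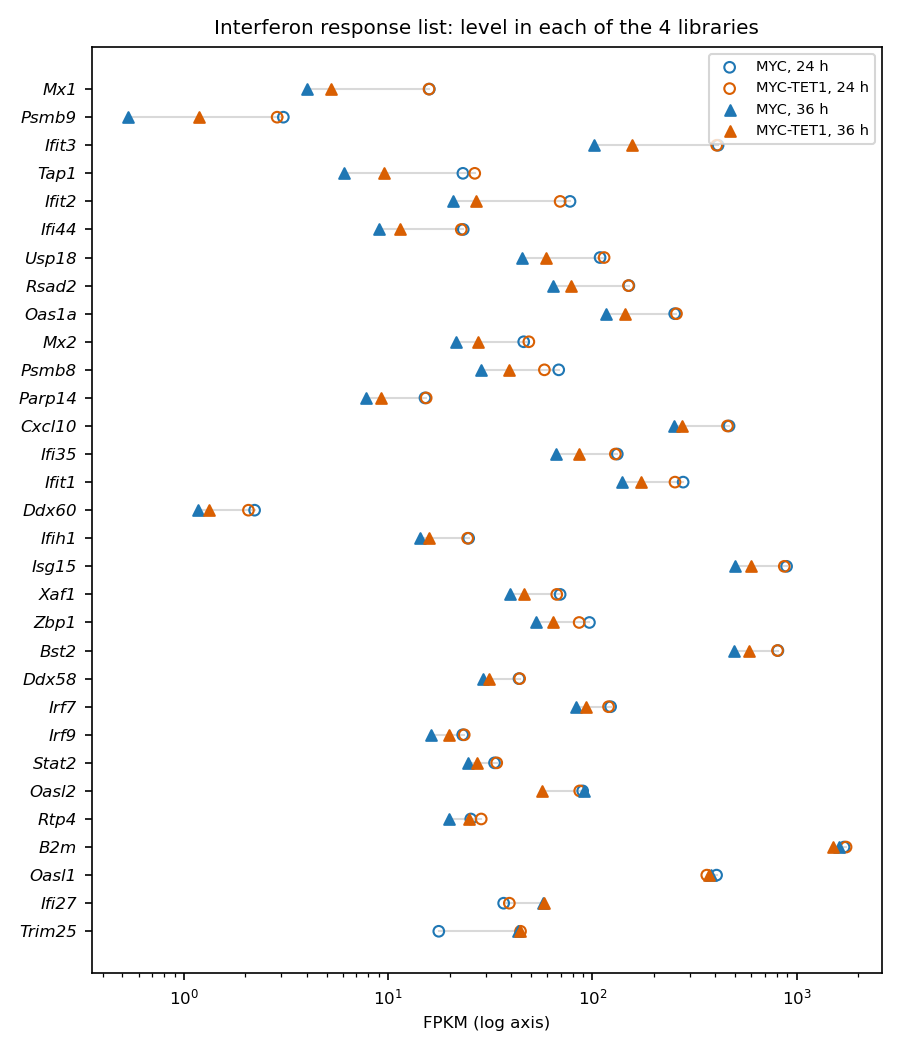
FPKM on a log axis of 31 members of the interferon response list in each of the 4 libraries, sorted by the mean log2 ratio. Open circles are 24 h and filled triangles 36 h, blue for MYC and orange for MYC-TET1. For most genes both circles lie together to the right of both triangles, and the orange triangle lies to the right of the blue one. Ifi27 and Trim25 have the highest ratios.

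Several effectors and regulators missed the 2-fold rule. Usp18, which removes ISG15 from proteins and restrains the receptor, was 109 and 114 at 24 h and 45.4 and 59.0 at 36 h. Rsad2, which makes a chain-terminating nucleotide, was 151 and 150 and then 64.2 and 78.3. Oas1a, which makes the messenger that activates RNase L, was 253 and 258 and then 117 and 145. The sensors of double-stranded RNA were also lower, Ifih1 with 24.8 and 24.5 and then 14.3 and 15.8, and Ddx58 with 43.7 and 44.1 and then 29.3 and 31.4. Cxcl10, a chemokine, was 467 and 459 at 24 h and 252 and 276 at 36 h.

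The most abundant member after B2m was Isg15, a ubiquitin-like protein, with an FPKM of 894 and 871 at 24 h and of 502 and 597 at 36 h. Uba7, the enzyme that activates it, is no member of the list and fell from 16.3 and 16.2 to 6.18 and 7.45. Irf7 and Stat2 were less than 1.5-fold apart, at 123 and 120 and then 83.2 and 93.4, and at 33.2 and 34.03 and then 24.5 and 27.2. The exceptions in the list were few. Ifi27 was higher in both 36 h libraries, with 36.8 and 39.2 and then 57.5 and 57.9, and Oasl1, Oasl2 and Trim25 overlapped between times. Trim25, a ubiquitin ligase of RNA sensing, was 17.7 in MYC at 24 h and between 43.3 and 44.5 in the other 3 libraries.

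Further genes that fell and are known as interferon inducible lie outside the list. Phf11b on chromosome 14 went from 40.1 and 38.7 to 14.9 and 15.5 (edgeR adjusted p = 0.0693 with and 0.0236 without the plasmid term), and its neighbour Phf11a from 4.85 and 4.78 to 1.77 and 1.36. Trim30c went from 6.37 and 6.73 to 1.60 and 2.87. Ifi205, of the DNA-binding PYHIN family, went from 2.75 and 3.08 to 1.05 and 0.974, Ifi44l from 2.93 and 2.43 to 0.502 and 0.271, and Slfn4 from 1.13 and 1.12 to 0.171 and 0.374. Mpeg1, a pore-forming protein of phagocytes, went from 5.99 and 6.97 to 2.43 and 2.78.

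The ligand and its receptor were read as well, in a set picked after the values above were seen. Ifnb1, the gene of interferon beta, had an FPKM of 1.16 and 0.990 at 24 h and of 0.224 and 1.01 at 36 h, so it was lower with MYC only and overlapped between times. Ifnar1 was 8.94 and 9.82 at 24 h and 10.6 and 9.62 at 36 h, and Ifnar2 was 18.4 and 18.8 and then 18.7 and 16.8. In neither receptor gene did the times separate.

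The fall of the interferon genes was larger with MYC than with MYC-TET1. The ratio was the lower of the pair in MYC for 28 of 32 list members, against 51.2% of all compared genes, and for 11 of the 12 genes with the largest falls. At 24 h the plasmids were close, with MYC-TET1 above MYC in 13 of 32 members. At 36 h, MYC-TET1 was above MYC in 29 of 32, against 50.8% of compared protein-coding genes. With 1 library per condition this difference was not tested, and plasmid and library cannot be told apart.

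Genes not counted here among those of the interferon response also fell. Kirrel, an adhesion protein of the nephrin family on chromosome 3 from 87078593 to 87174747, had an FPKM of 15.6 and 15.5 at 24 h and of 4.10 and 4.34 at 36 h, 3.74-fold and 3.51-fold lower. Its edgeR adjusted p was 0.0592 with and 0.0138 without the plasmid term. Hsd17b12, a reductase of fatty acid elongation, went from 105 and 103 to 49.5 and 50.3 with the same adjusted p values by edgeR. Ets1, a transcription factor, went from 7.24 and 7.57 to 3.21 and 3.30, and Iffo2, an intermediate filament protein, from 10.6 and 10.6 to 4.83 and 4.57. Brms1 fell from 18.9 and 22.6 to 8.81 and 8.98, but Gm50388, which covers it on the same strand, had 3066 and 2483 counts at 24 h and 3619 and 4585 at 36 h, and the sum of both gave log2 ratios of -0.11 and 0.04.

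The genes that rose were not grouped by any term named above. Ranked by size, the first 12 with an FPKM of 5 or more in both 36 h libraries were Eif3j2, Rprd1b, Gapdh, Golm1, Ccdc85b, Fignl1, Kxd1, Plpp5, Gsto1, Ankrd37, Tmed2 and Clcf1. Gsto1, a glutathione transferase on chromosome 19, had neither an overlapping gene nor a near-identical copy, and had 28.4 and 27.6 at 24 h and 68.1 and 65.0 at 36 h, a rise of 2.39-fold and 2.35-fold. Its edgeR adjusted p was 0.0592 with and 0.0138 without the plasmid term. Plpp5, a lipid phosphatase, went from 2.63 and 2.85 to 6.69 and 6.89, and Fignl1, an ATPase of DNA repair, from 3.37 and 3.61 to 10.7 and 9.61. Tmed2, a cargo receptor of the early secretory pathway, went from 54.0 and 50.2 to 148 and 116. Clcf1, a cytokine of the interleukin-6 family, went from 4.63 and 5.12 to 10.8 and 13.1. Ccng2, a cyclin that accumulates when cells stop dividing, was the last gene eligible, with 5.46 and 5.02 and then 11.4 and 11.3.

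**Figure D3:**
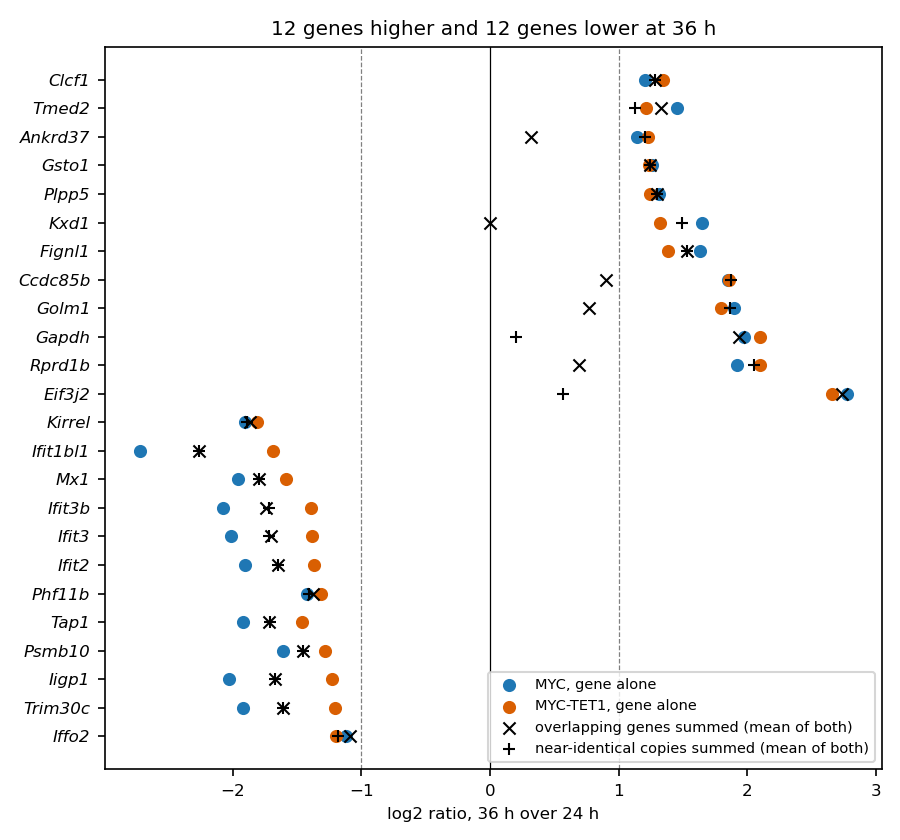
The log2 ratio of 36 h to 24 h for the 12 leading genes in each direction, blue for MYC and orange for MYC-TET1. Crosses give the mean of both plasmids after the counts of overlapping genes were summed, plus signs the same with near-identical copies, and dashed lines mark 2-fold. Gapdh and Eif3j2 drop within 2-fold with copies, and Golm1, Rprd1b, Ccdc85b, Kxd1 and Ankrd37 with overlapping genes, while none of the 12 lower genes does.

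Gapdh, the glycolytic enzyme often taken as a reference gene in QRT-PCR, was listed with an FPKM of 19.8 and 22.2 at 24 h and of 78.1 and 95.3 at 36 h. Its counts were 6076 and 7306 at 24 h and 21642 and 31821 at 36 h. However, 90 genes, 85 of them pseudogenes, carry near-identical copies of its transcript, and these held 253493 and 279670 counts at 24 h and 249837 and 301717 at 36 h. Summed with its copies, Gapdh had log2 ratios of 0.20 and 0.20. The copies thus held most of the summed counts at both times, and how reads were shared between them and Gapdh was not tested. Other glycolytic genes were less than 1.2-fold apart, Pgk1 with 716 and 724 and then 751 and 724, and Aldoa with 458 and 452 and then 520 and 512.

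Eif3j2, a subunit of a translation initiation factor, went from 3.18 and 3.54 to 22.3 and 22.8, the largest of the 12 leading rises. It shares nearly its whole sequence with Eif3j1, which was 14.4 and 13.1 at 24 h and 13.6 and 12.8 at 36 h, and the summed counts gave log2 ratios of 0.52 and 0.60. For genes that overlap a neighbour, the sum with that neighbour was smaller too. Golm1, a Golgi membrane protein, went from 3.80 and 4.04 to 14.4 and 14.3, and with Naa35 on the opposite strand the log2 ratios were 0.75 and 0.79. Rprd1b, which binds RNA polymerase II, went from 2.10 and 1.87 to 8.22 and 8.33, and with Tgm2 they were 0.59 and 0.79. Of the 19 protein-coding genes that rose, 11 overlapped another gene and 5 had near-identical copies, and 13 and 16 remained 2-fold apart when these were summed. Of the 35 that fell, 17 overlapped another gene and 9 had copies, and 28 and 32 remained. An overlap with another gene was found for 52.2% of all compared protein-coding genes. A sum with an abundant neighbour is pulled to that neighbour's ratio, and whether strand was used in the library or the counting is not given in the sources used here, so reads of opposite strands may not be told apart.

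Sterol synthesis was lower at 36 h by a smaller amount. Cells control this pathway through SREBP2, a membrane-bound factor that is released when sterol is scarce and switches on the enzymes from acetyl-CoA to cholesterol. Of 24 compared genes, 0 passed 2-fold in either direction and 3 passed 1.5-fold, all lower, namely Idi1, Insig1 and Fdft1. Both 36 h libraries were below both 24 h libraries in 22 of the 24, and above them in 0, against 20.8% and 27.9% of all compared genes. The median log2 ratio was -0.47 with MYC and -0.41 with MYC-TET1. An unadjusted p under 0.05 by edgeR was found for 19 of 24 members, against 13.9% of all compared genes, and none passed after adjustment.

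Idi1, an isomerase of the isoprenoid steps, had an FPKM of 14.7 and 12.1 at 24 h and of 6.54 and 7.30 at 36 h. Insig1, which retains SREBP2 in the endoplasmic reticulum, was 20.5 and 20.1 and then 9.88 and 12.6. Fdft1, which makes squalene, was 24.5 and 25.0 and then 14.9 and 12.7. The most abundant compared members were Ebp, at 44.1 and 42.2 and then 38.8 and 40.1, and Acat2, at 36.2 and 38.8 and then 26.2 and 34.2. Dhcr7 and Tm7sf2 overlapped. In gene ontology, 15 of 21 genes of cholesterol biosynthesis were lower in both 36 h libraries and 2 were higher, against 20.8% and 27.9% of all compared genes. In the list of fatty acid synthesis the counts were 5 lower, 0 higher and 6 overlapping of 11, a lower share also above that of all compared genes, with medians of -0.04 and -0.08.

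**Figure D4:**
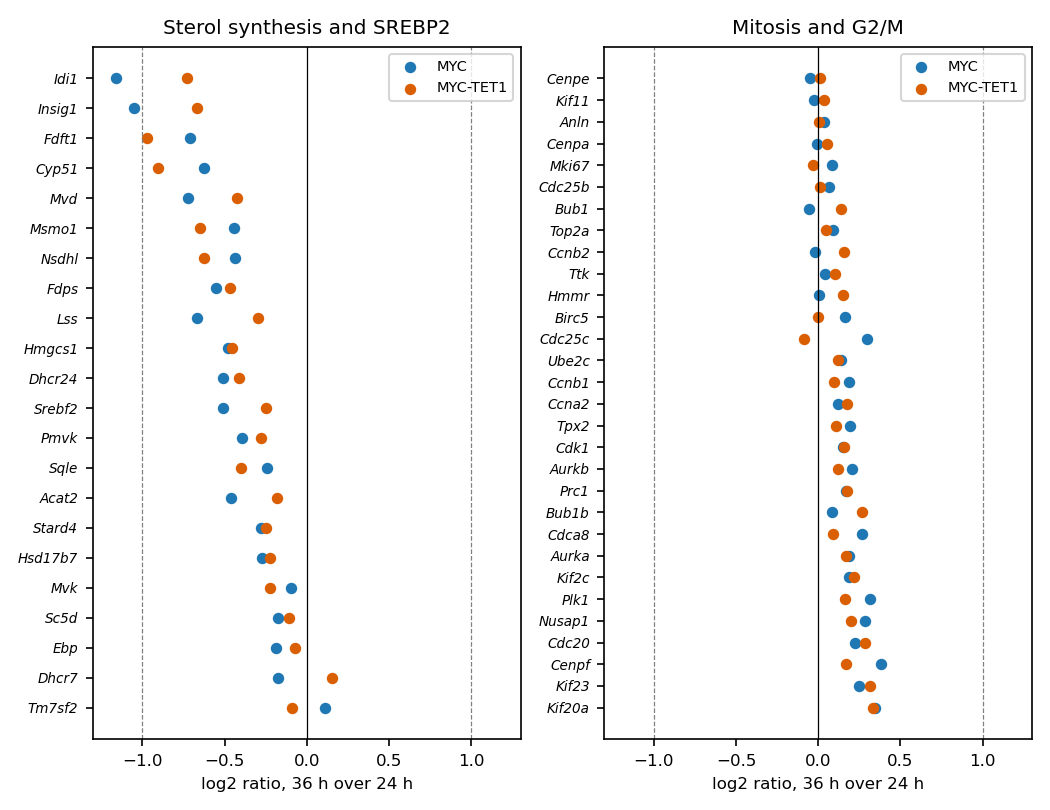
The log2 ratio of 36 h to 24 h for 22 compared members of the sterol list (left) and 30 of the mitosis list (right), blue for MYC and orange for MYC-TET1, with dashed lines at 2-fold. Nearly all sterol genes lie left of 0 with both plasmids, and most mitosis genes lie right of 0 by less than 0.4.

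Genes of mitosis were slightly higher at 36 h. Of 30 compared genes, 21 were higher in both 36 h libraries than in both 24 h libraries, 0 were lower, and 0 passed 1.5-fold, against 27.9% higher and 20.8% lower of all compared genes. Their median log2 ratio was 0.16 with MYC and 0.13 with MYC-TET1, and 11 were higher with an unadjusted p under 0.05 by edgeR, against 6.33% of all compared genes. Kif20a, a kinesin of cytokinesis, was 54.7 and 56.9 at 24 h and 69.4 and 71.6 at 36 h. Cdc20, the activator of the anaphase-promoting complex, was 64.0 and 62.3 and then 74.8 and 75.8. The most abundant members were Aurka, a spindle kinase, with 112 and 112 and then 128 and 127, and Plk1, with 84.1 and 86.9 and then 105 and 97.2. The CCAAT box lay in 84.6% of 26 windows of these genes, against 33.8% of all windows and 36.3% of those of compared genes, and the sterol list held it in 80% of 20 windows. The sterol regulatory element itself (TCAC, any base, CCAC) lay in 1 of those 20 windows and in 1.05% of all windows.

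Other cell cycle genes did not follow 1 direction. In the list of DNA replication, 11 of 31 were lower and 4 were higher in both 36 h libraries, with medians of -0.04 and -0.04, against 20.8% lower and 27.9% higher of all compared genes, and Pcna was 191 and 188 at 24 h and 168 and 178 at 36 h. Among 16 inhibitors and genes of quiescence, 1 rose (Ccng2) and 9 were higher in both 36 h libraries, against 0.261% and 27.9% of all compared genes. Cdkn2d, which inhibits the kinase partners of cyclin D, was 10.2 and 4.06 and then 19.5 and 17.9, short of the rule with MYC. Cdkn1a was 29.2 and 31.5 and then 37.5 and 40.2. Ccnd3, a cyclin D gene, was lower by 1.5-fold with 26.3 and 28.6 and then 15.0 and 8.33.

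Inflammation was read from targets of NF-kappa B, many of them secreted. Of 19 compared genes of the list, 11 were lower and 2 were higher in both 36 h libraries, against 20.8% and 27.9% of all compared genes, and 1, Il6, passed 1.5-fold with 1.99 and 2.39 and then 0.847 and 1.12. The chemokine Ccl2 was 499 and 452 at 24 h and 371 and 345 at 36 h, Ccl7 was 164 and 159 and then 119 and 112, and Cxcl1 was 167 and 160 and then 124 and 115. Ccl5, the most abundant at 1107 and 1122, was 1159 and 1162 at 36 h. The 53 genes of the KEGG NF-kappa B pathway had 18 lower and 7 higher.

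The immediate early list, genes that cells switch on within minutes of a stimulus, had 9 of 13 members higher in both 36 h libraries and 2 lower, with 0 past 1.5-fold, against 27.9% and 20.8% of all compared genes. Its most abundant member Ier3 was 329 and 330 and then 411 and 439, and Dusp6 was 55.0 and 51.8 and then 60.0 and 58.5. Hypoxia and glycolysis had 2 of 25 genes called higher, against 0.261% of all compared genes, and both, Gapdh and Ankrd37, were within 2-fold after copies or overlapping genes were summed. Ankrd37 went from 2.84 and 2.70 to 6.40 and 6.46 while Ufsp2 overlaps it. For the p53 targets, the unfolded protein response, the NRF2 targets and the circadian clock, 0 members passed 1.5-fold by the rule. The medians were within 0.1 of 0. Members could still move with a single plasmid, as Srxn1 of the NRF2 list was 42.9 and 41.5 and then 7.54 and 43.2. A further list held genes that the authors measured by QRT-PCR or Western blot, with Jun and Nfkb1 added. Daxx was its only compared member past 1.5-fold by the rule, with 30.9 and 29.4 at 24 h and 17.9 and 19.4 at 36 h. Tet1 went from 40.2 to 19.6 with MYC-TET1 only. Sp1 was 10.4 and 9.77 and then 10.2 and 10.5.

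**Figure D5:**
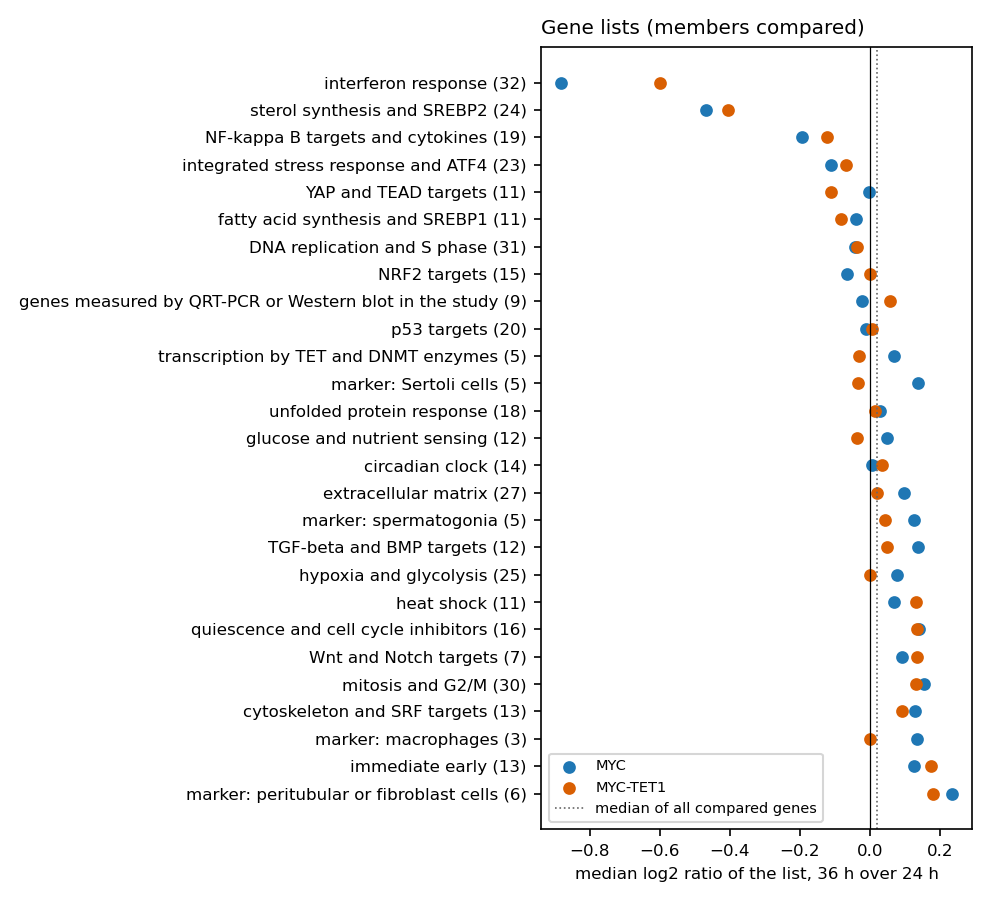
Median log2 ratio of 36 h to 24 h for the 27 gene lists with compared members, blue for MYC and orange for MYC-TET1, with the number of compared members in brackets. The dotted line is the median of all compared genes at 0.02. The interferon and sterol lists lie furthest to the left, with both plasmids, and the remaining medians lie between -0.20 and 0.24.

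Of the 90 called genes, 54 were protein-coding, 14 were pseudogenes, 18 were small RNA, tRNA or rRNA genes and 4 were long noncoding or unclassified. The small RNA class was called most often, for 18 of 203 compared genes (8.87%), against 54 of 10316 protein-coding genes (0.523%) and 14 of 1230 pseudogenes (1.14%). Under 100 counts in every library were found for 23 of the 90 called genes. Gm24865, a small RNA gene on chromosome 7 from 25828632 to 25828727, had 1 and 1 counts at 24 h and 18 and 23 at 36 h. The pseudogene Gm4613 encloses it on the same strand and was called the other way, with 113 and 77 counts at 24 h and 0 and 0 at 36 h.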

How the data were processed

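Total RNA of the 4 GC-1 libraries had been sequenced after TruSeq library preparation. The deposited table held whole-number read counts per gene, which the authors had not normalized, and FPKM values. These FPKM values did not follow from the whole-number counts alone. Mir6920, for example, had 1 count in MYC-TET1 at 24 h and in MYC at 36 h, with FPKM of 0.167 and 0.0056. Submitters' processing notes name Bowtie 0.12.2 and the builds mm8 and mm9. The counting tool is not given in the sources used here. Of the gene identifiers 99.6% were found in GENCODE M21 (GRCm38), with identical coordinates for 94.3% of those found. A listed FPKM of 0.0001 stands for a count of 0.

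Fold calls were made on FPKM with a pseudocount of 0.1. Counts of the 12254 genes were tested with edgeR 4.0.16 (quasi-likelihood, TMM, Benjamini-Hochberg) and DESeq2 1.42.0. Named were the 12 largest rises and 12 largest falls among called protein-coding genes with FPKM of at least 5 in both libraries of the higher time, ranked by the smallest of the 4 ratios, plus up to 6 called members of each of 29 lists (the 2 most abundant where none was called). A few list members are counted but not reported here by name. Genes named beyond this rule were chosen after their values were seen. The members and lists were chosen with earlier results of these data known. Near-identical copies were transcripts aligned by BLAST 2.17.0 over at least 200 bases at 95% identity. Promoters came from RefSeq (GRCm38.p6). The edgeR step was tested on simulated counts. Alternatives were other pseudocounts, filters, scalings, thresholds and left-out libraries, with summed overlapping genes or copies added after the data were seen. Python 3.11.15 and R 4.3.3 were used.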

Additional observations from a re-analysis of the deposited data

Results flagged for a closer look

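Between the plasmids, 42 genes were at least 2-fold higher at 36 h with MYC and at least 2-fold lower with MYC-TET1, and 36 genes were the reverse. They were picked out because the libraries of both plasmids moved in opposite directions, and with 1 library per condition the difference was not tested. Of these 78 genes, 30 were protein-coding, 20 were pseudogenes and 19 were small RNA, tRNA or rRNA genes. Of the protein-coding ones, 15 (50%) overlapped another gene of the table, against 52.2% of all compared protein-coding genes. Near-identical copies were not looked for here, and how reads were shared between overlapping or copied genes was not tested. Examples, named after their values were seen, had 2 high and 2 low libraries, with each plasmid high at a different time. Nfe2l1, a transcription factor of proteasome genes, had an FPKM of 85.2 with MYC and 13.8 with MYC-TET1 at 24 h, and of 14.4 and 81.1 at 36 h. Itprip had 24.9 and 2.72 at 24 h and 2.76 and 23.7 at 36 h, and Pygo2 had 1.36 and 12.2 and then 14.5 and 1.55. Peg3, an imprinted gene, had 7.28 and 0.715 and then 0.930 and 6.48.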

How the results depend on the processing

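The counts of the fold rule (32 higher and 58 lower) moved with the setting. They were 14 and 28 with a pseudocount of 1, 101 and 148 with no filter on low FPKM, 13 and 23 where the mean FPKM had to reach 5, 86 and 132 with FPKM rescaled to the same sum (which let 14998 genes pass the filter), 108 and 176 at 1.5-fold and 6 and 10 at 4-fold. With each library left out in turn they ranged from 94 to 125 higher and from 121 to 193 lower, since fewer libraries had to separate. A pseudocount of 0.01 and TMM-scaled CPM stayed within 1.5 times. edgeR with the plasmid term called 0 in each direction. It called 28 and 60 without that term, and 8 and 9 with filterByExpr. With each library left out the plasmid term had to be dropped too, and 1 time was left with a lone library that was assumed to vary like the other time. These fits called from 0 to 15 and from 0 to 75, and 15 and 75 came without the MYC-TET1 library of 36 h. DESeq2 called 149 and 279. Across the settings tried, from 15 to 22 interferon genes were lower by 1.5-fold, from 22 to 23 sterol genes were lower and from 19 to 27 mitosis genes were higher. Of the named genes, Kxd1 changed sign with overlapping genes summed (mean log2 ratio -0.0037). The causes of these moves were not tested. The labels carry no replicate numbers, so plasmid was the only block.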

Other observations

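Some called genes lie inside, or are covered by, a gene that moved the other way. Lrch4, on chromosome 5 from 137629121 to 137641094, had 1001 and 873 counts at 24 h and 64 and 398 at 36 h, whereas Gm20605, which covers nearly all of it on the same strand, had 881 and 483 and then 2036 and 1845. The sum of both gave log2 ratios of 0.30 and 0.70, so the call was lost and the direction turned. Gm27325, a small RNA gene inside Eif3j2, had 2 and 8 counts at 24 h and 1 and 1 at 36 h, while Eif3j2 had 562 and 670 and then 3554 and 4380. These genes were named after their values were seen.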
